A study of Mus musculus with 12 samples.

Results

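Interleukins and their receptors were followed on whole-genome arrays of mouse back skin, as all probes whose gene name in the array files begins with Il and a digit. This name rule took 124 probes for 81 genes, out of 41174 probes and 27373 gene names, and used no measured value. Male C57BL/6J mice, 8 weeks old at the start, had their backs shaved and from the next day received 200 µL per day of 3% minoxidil (MXD, a drug applied to promote hair growth), of 10% Notocactus ottonis cell extract (N-CE, from cells of a cactus), or of the vehicle control (VC), a mixture of propylene glycol, ethanol and water. Whole back skin was taken at 1, 2 and 3 weeks (1W, 2W, 3W), and each group of a given week was a single pool of RNA from 6 mice. Each of the 6 comparisons hybridised a treated pool together with the VC pool of that week to a dye-swapped pair of arrays, so both treatments of a week shared their VC pool and a slide. With 1 pool per group and week there was no biological replicate, and the SD given below is over the 2 arrays of a dye swap. All groups carried the vehicle, and no unshaved or untreated skin was analysed here.

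Interleukins are secreted signals by which keratinocytes, fibroblasts and leukocytes of the skin instruct each other, and they act through receptor chains that several ligands often share. The IL-1 family holds alarm signals of the epidermis, such as IL-1 alpha, IL-18, IL-33 and the IL-36 cytokines, together with antagonists and decoy receptors that restrain them. Cytokines of the common gamma chain family maintain lymphocytes, those of the IL-10 family act largely on epithelium, and those of the IL-17 family link T cells with epithelial defence.

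The probes below are shown because the findings turn on them and because their position says which transcript they read. Positions are on mm9, plus strand, and each array probe has 60 bases. Those of Il1rl1, the receptor of IL-33, are listed for different transcript variants. The variant 2 probe (A_51_P339793, chr1:40504769-40504828) and the variant 1 probe (A_52_P484194, chr1:40521952-40522011) are given by their first 30 bases, and the probe listed for both (A_52_P19955, chr1:40498342-40499204) in full:
Il1rl1 variant 2: ctctgtaacaggatcttttgtctagatttc
Il1rl1 variant 1: tgaccttatttgcttaccagttacaggtaa
Il1rl1 both variants: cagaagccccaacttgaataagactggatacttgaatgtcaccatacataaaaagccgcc
The probes of Il1f6 (A_51_P504194, chr2:24072192-24079960), Il18 (A_51_P153565, chr9:50387470-50389598) and Il1r2 (A_52_P417890, chr1:40168971-40171918) have ends farther apart than their length, so each joins separate blocks of the genome and reads a spliced transcript:
Il1f6: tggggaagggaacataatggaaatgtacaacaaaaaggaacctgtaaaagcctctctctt
Il18: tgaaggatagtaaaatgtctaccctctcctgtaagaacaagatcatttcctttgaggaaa
Il1r2: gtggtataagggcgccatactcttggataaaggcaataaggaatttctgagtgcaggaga

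A probe was counted as measured in a comparison when the software placed it well above background in both groups, each on at least 1 array. Of the 124 probes, 65 were measured in all 6 comparisons and 85 in at least 1, which is 68.5% of members against 70.8% of all probes. There were 81 measured members at MXD 1W, 74 at MXD 2W, 67 at MXD 3W, 83 at N-CE 1W, 75 at N-CE 2W and 66 at N-CE 3W. In all 6 comparisons, 32 probes were above background in neither group, and 16 genes had no probe above background in any group. They were the ligands Il3, Il5, Il9, Il12b, Il17a, Il17c, Il19, Il20, Il21, Il22, Il23a and Il31 and the receptor chains Il9r, Il18rap, Il1rapl1 and Il23r. The 46 cases of a probe above background in 1 group only gave no fold in 13 and a lower bound of at most 1.14-fold in the other 33, the highest being Il2ra, which was at least 1.14-fold higher in VC than in MXD at 2W. N-CE 3W had 18 probes above background in VC only, more than the 2 to 5 of the other comparisons. On its array with N-CE in Cy3, 69.6% of all spots were well above background for VC and 61.9% for N-CE. On its other array the share for VC was the lower one. The share of all probes above background in VC only was not computed. The part of array sensitivity in these 18 probes was not tested.

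The limits of P and of fold were those of the study. The need for P on both arrays, in 1 direction, and for signal above background in both groups was set here. A measured probe had to show a Feature Extraction P for its spot under 0.01 on each array of the pair, with 1 direction, and its mean fold had to exceed 1.5 or lie under 0.75. Such a call concerns these pools and is no test of the treatment across mice. In total 28 member probes of 23 genes were called in at least 1 comparison. Nearly all of the calls lay in a single comparison, MXD 2W, in which 25 members were lower and 1 higher than VC, where 8.90% of all measured probes were called lower and 6.09% higher. At MXD 1W 2 members were called higher and 1 lower, 2.47% and 1.23% of those measured, against 1.01% and 1.16% of all probes. At N-CE 1W 1 was called higher and 0 lower, against 0.465% and 2.15% of all probes. There were 0 called members at MXD 3W, N-CE 2W and N-CE 3W, where 0.220%, 0.103% and 0.240% of all probes were called higher and 0.256%, 0.0774% and 0.209% lower. The study's own lists of most changed genes place Il10 among the lowered genes at N-CE 2W and 3W, and Il1rl1 at MXD 3W. By the filter used here no IL-10 family ligand was measured at N-CE 2W or 3W. The variant 1 probe of Il1rl1 stood at a log2 fold of -0.15 at MXD 3W.

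**Figure D1:**
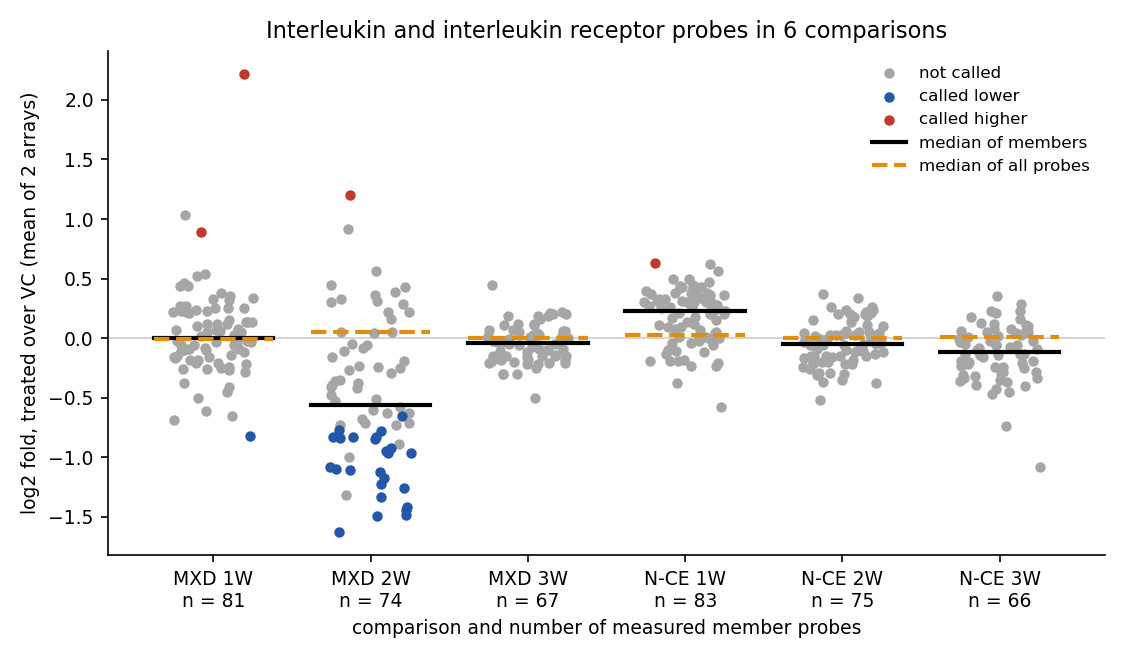
Log2 fold of each measured member probe over VC (vertical axis, mean of the 2 arrays of a dye swap) in the 6 comparisons (horizontal axis), with called probes in colour, the median of members as a black line and that of all measured probes as a dashed line. The median of members is -0.56 at MXD 2W, where 25 probes are called lower, and 0.23 at N-CE 1W.

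After 2 weeks of MXD the interleukin genes were mostly lower than in VC. Of 74 measured members, 57 were lower and 17 higher, and their median log2 fold was -0.56, against 0.05 for all 26611 measured probes. The median was -0.50 on the array with MXD in Cy5 and -0.58 on the array with MXD in Cy3. The 25 members called lower, for 21 genes, were 33.8% of those measured, above the 8.90% of all probes. The single member called higher was 1.35% of those measured, below the 6.09% of all probes. Of the 26 measured ligand probes 10 were called lower, and of the 47 measured receptor probes 15. In pooled whole skin, fewer cells of a type and less RNA per cell cannot be told apart.

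The size of this shift depended on how faint spots were handled. After normexp background correction with an offset of 50 and loess, which draws the ratios of faint spots towards 1, the median of members at MXD 2W was -0.27 and that of all probes 0.00. All 25 probes called lower kept their direction there, and 23 stayed below the fold of 0.75, Il13ra2 and Il15 being the exceptions. Of the 24 members with a mean processed signal of 1000 or more, a split chosen after the values were seen, the median was -0.45 as deposited and -0.46 after normexp, and 9 were called lower. The 50 fainter members moved from -0.61 to -0.23. The same VC RNA read 0.37 higher over members on the MXD arrays than on the N-CE arrays of week 2, and 0.32 higher over all probes. With the VC readings of both comparisons averaged on a common scale, an alternative added after seeing the data, the median of members at MXD 2W was -0.43 and that of all probes 0.05.

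**Figure D2:**
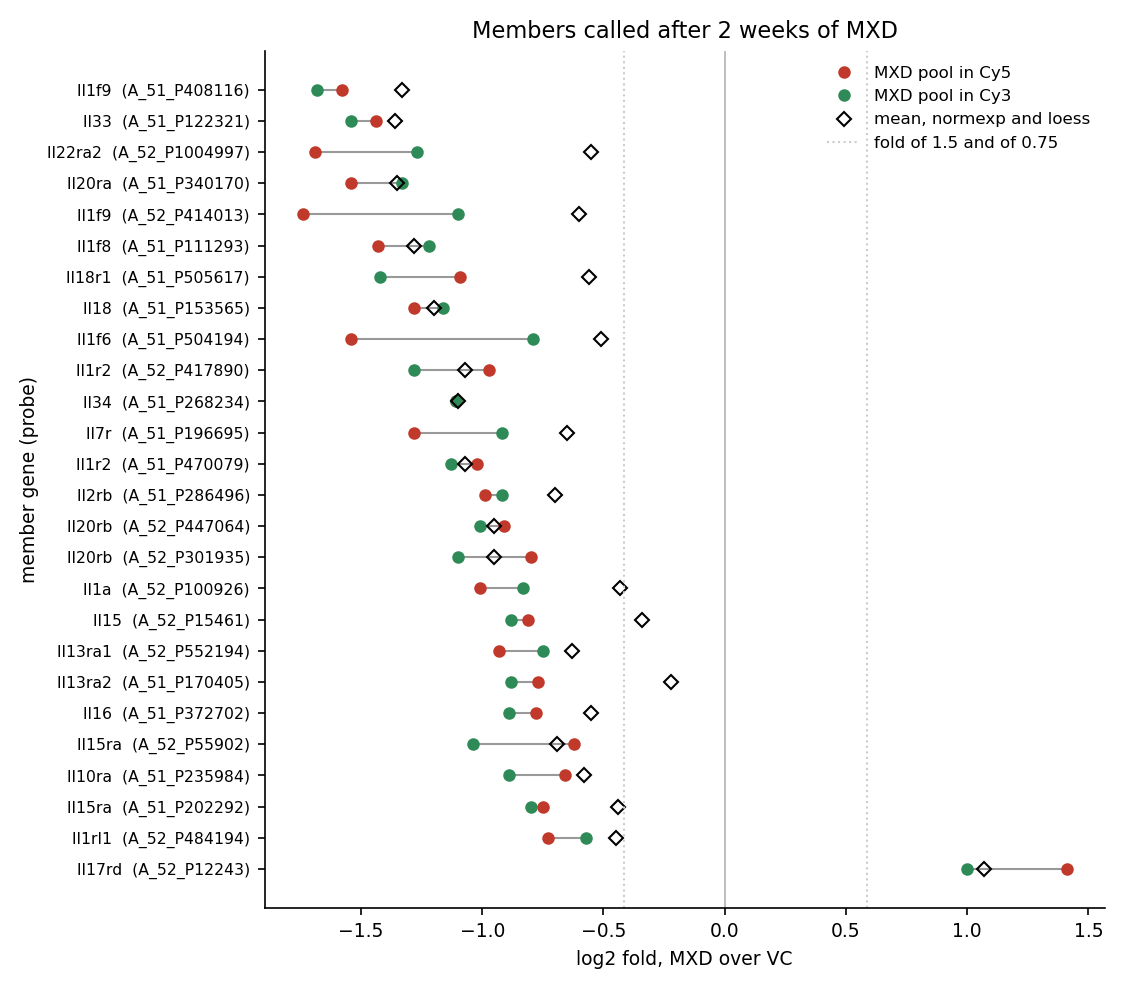
Log2 fold over VC (horizontal axis) of the 26 member probes called at MXD 2W, with the arrays with MXD in Cy5 and in Cy3 as filled circles, and the mean after normexp and loess as an open diamond. Only Il17rd lies to the right of 0, and the diamonds of Il13ra2 and Il15 lie between the dotted fold limits.

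The IL-1 family carried the largest group of these probes, and also had the most measured probes. Of its 24 measured probes at MXD 2W, 11 were called lower and 0 higher, with a median log2 fold of -0.64. Among all probes 8.90% were called lower and 6.09% higher. Il33, an alarm cytokine stored in the nucleus of epithelial cells, had processed signals of 780 and 593 in the MXD pool against 2112 and 1726 in the VC pool. Both MXD readings were below both VC readings, and the log2 fold was -1.49 (SD 0.07). Il18, a cytokine that caspase 1 releases in its active form, read 1814 and 1418 against 4403 and 3169, a log2 fold of -1.22 (SD 0.08). Here too both MXD readings were below both VC readings. For both genes the readings of a group are 1 pool labelled with each dye, so this separation says nothing across mice. Il1a, the IL-1 cytokine that keratinocytes hold ready, was called lower with 1 probe, at -0.92 (SD 0.13), while its other probe stood at -0.38 (SD 0.57) and was not called.

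The 3 genes of the IL-36 cytokines, Il1f6 (alpha), Il1f8 (beta) and Il1f9 (gamma), were all called lower at MXD 2W. Il1f8 read 1295 and 1024 in MXD against 3502 and 2385 in VC, and Il1f9 read 447 and 282 against 1336 and 901. Their log2 folds were -1.33 (SD 0.15) and -1.63 (SD 0.07), and the second probe of Il1f9 gave -1.42 (SD 0.45). Il1f6, read by the splice-spanning probe shown above, was fainter, at 72 and 75 against 211 and 129, with a log2 fold of -1.17 (SD 0.53). It was the only member called in both directions, since at MXD 1W it read 181 and 238 against 109 and 115 in VC, a log2 fold of 0.89 (SD 0.22). After normexp these folds of Il1f6 were 0.56 at 1W, no longer past 1.5-fold, and -0.51 at 2W. Il1f5, the antagonist of the IL-36 receptor, gave -0.71 (SD 0.41) and -0.63 (SD 0.47) with its 2 probes at MXD 2W, was not called, and is named after its values were seen.

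The sequence ahead of the start site is given for Il1f8 and Il1f9 because these genes lie near each other on chromosome 2 and were both called lower. The 250 bases are from RefSeq on GRCm38.p6, plus strand, at chr2:24152922-24153171 for Il1f8 and chr2:24186226-24186475 for Il1f9, with capitals marking TGANTCA, a motif of AP-1, and TTCNNNGAA, a motif of STAT factors. Both motifs read the same on either strand.
Il1f8: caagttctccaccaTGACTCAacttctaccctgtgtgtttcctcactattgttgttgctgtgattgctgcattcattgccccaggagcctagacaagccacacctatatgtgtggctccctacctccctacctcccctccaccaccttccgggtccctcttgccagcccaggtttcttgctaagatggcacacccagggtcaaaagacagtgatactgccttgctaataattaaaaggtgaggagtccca
Il1f9: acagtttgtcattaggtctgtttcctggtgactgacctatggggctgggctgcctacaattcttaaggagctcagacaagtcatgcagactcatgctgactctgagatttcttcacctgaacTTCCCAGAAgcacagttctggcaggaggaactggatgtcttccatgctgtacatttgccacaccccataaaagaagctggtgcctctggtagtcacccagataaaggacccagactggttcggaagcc
TGANTCA was found in 6.75% of all 32851 promoter windows of this length, in 14 of the 79 windows of 64 member genes (17.7%), and in 6 of the 22 windows found for 15 of the 21 genes called lower at MXD 2W (27.3%). TTCNNNGAA was found in 7.02%, 10.1% and 18.2% of the same windows. The windows found for Il33, 2 in number, and the window of Il18 held neither motif. A match describes the letters only, and windows of one gene can overlap.

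**Figure D3:**
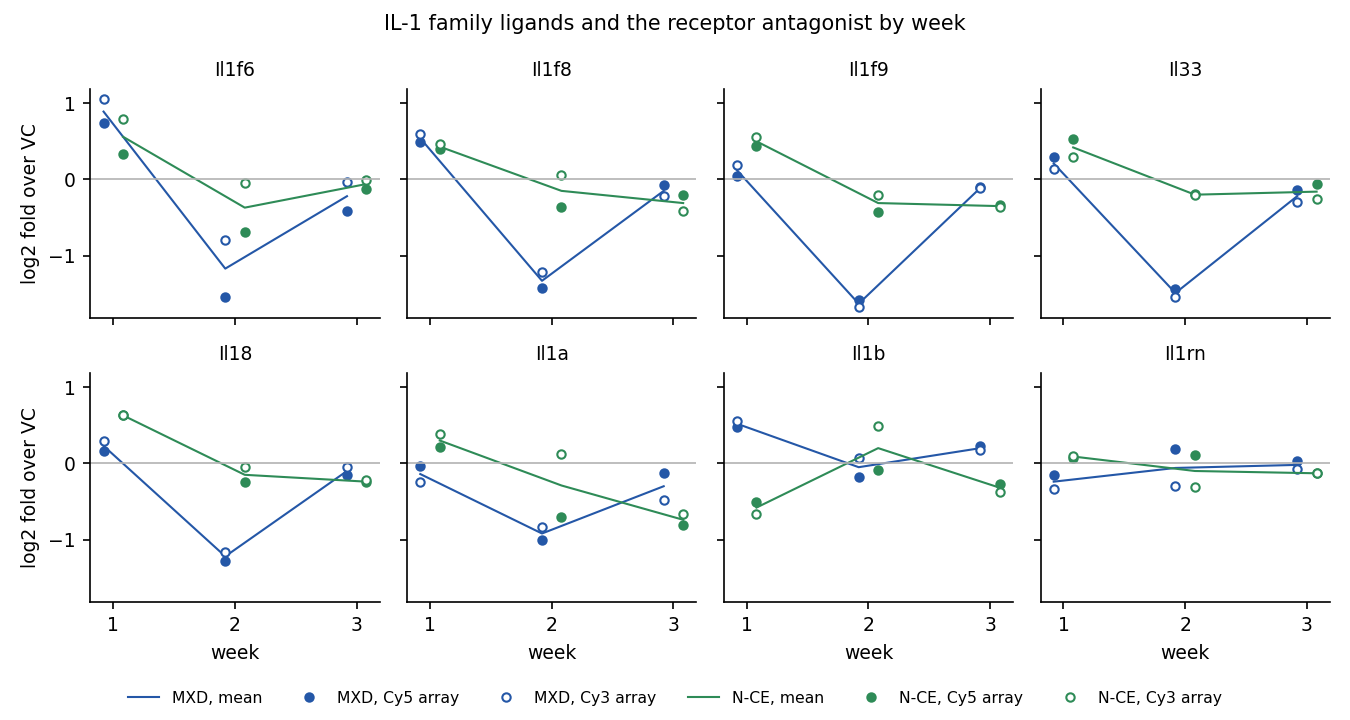
Log2 fold over VC (vertical axis) by week (horizontal axis) for 8 IL-1 family probes, with MXD in blue and N-CE in green. Filled and open circles are the arrays with the treated pool in Cy5 and in Cy3, and lines join the means. Il1f6, Il1f8, Il1f9, Il33 and Il18 are lowest at MXD 2W, while Il1b and Il1rn stay near 0 there.

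Il1b, the inducible IL-1 cytokine, was at -0.05 (SD 0.17) at MXD 2W, and Il1rn, the IL-1 receptor antagonist, at -0.06 (SD 0.35). Il1r1, the signalling receptor of IL-1, stood at 0.31 (SD 0.22). None of these was called. Il1r2, the decoy receptor that binds IL-1 without signalling and the brightest member of the family, was called lower with both probes. Its brighter probe read 7183 and 5539 in MXD against 14561 and 12133 in VC, a log2 fold of -1.08 (SD 0.08), and the splice-spanning probe gave -1.12 (SD 0.21). Il18r1, a chain of the IL-18 receptor, was called lower at -1.26 (SD 0.23), or -0.56 after normexp.

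In the deposited ratios Il1rl1 gave the largest fold of any measured member, higher in MXD and at 1W, though not after normexp. The variant 2 probe, which reads the form encoding the soluble receptor that captures IL-33, had signals of 139 and 163 in the MXD pool at 1W and of 30 and 35 in its VC pool. The log2 fold was 2.22 (SD 0.01), a mean fold of 4.65, with Feature Extraction P of 5.67e-12 and 1.02e-12. The MXD pool was well above background on both arrays, but the VC readings were close to it, and after normexp the log2 fold was 0.83, smaller in size than that of Il33 at MXD 2W (-1.36). The variant 1 probe, which reads the membrane receptor, gave 456 and 480 against 374 and 378 in the same pools, a log2 fold of 0.32 (SD 0.04), and was not called. At MXD 2W the variant 1 probe was called lower, at -0.65 (SD 0.12), and the variant 2 probe was above background in neither group. The probe listed for both variants was above background in neither group in any comparison, so the 3 probes of this gene gave different pictures. The remaining probes of the week 1 MXD comparison showed no common direction, with 40 of 81 members higher than VC and a median log2 fold of 0.00.

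**Figure D4:**
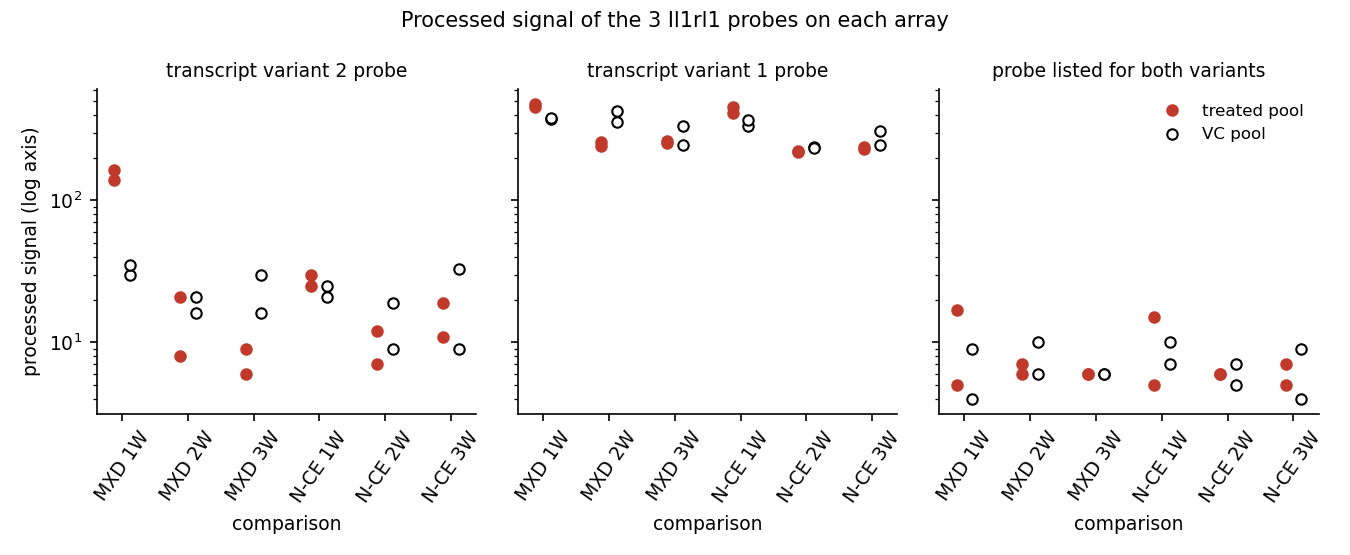
Processed signal (vertical log axis) of the 3 Il1rl1 probes on the 2 arrays of each comparison (horizontal axis), with treated pools filled and VC pools open. The variant 2 probe reads 139 and 163 in the MXD pool at 1W and 35 or less in every VC pool.

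Besides Il1f6 and Il1rl1, the only member called at MXD 1W was Il7, a growth factor of lymphocytes, which read 66 and 56 in MXD against 106 and 108 in VC. Its log2 fold was -0.82 (SD 0.18), or -0.29 after normexp. Il6, a cytokine of the acute response, read 52 and 55 in MXD against 24 and 29 in VC, a log2 fold of 1.03 (SD 0.11), but its P was 6.80e-03 on only 1 array and 0.0152 on the other, so it was not called. Il1b was at 0.52 (SD 0.05) with P of 0.0276 and 0.0103 and was not called. In the same comparison the neutrophil genes S100a8 and S100a9 were called higher at log2 folds of 2.89 (SD 0.00) and 2.51 (SD 0.14). The other 2 measured neutrophil markers of 8 listed were not called, 4 more being not above background in both groups, and the part of such cells in the member values was not tested. All 4 skeletal muscle markers were called lower there, against 1.16% of all probes, with a median log2 fold of -0.91. Their part was likewise not tested.

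In the common gamma chain family, 5 of 12 measured probes were called lower at MXD 2W and 0 higher. The shares of all probes were 8.90% called lower and 6.09% higher. Il2rb, a receptor chain for IL-2 and IL-15, was at -0.96 (SD 0.05), and Il7r, the receptor of IL-7, at -1.10 (SD 0.26). Il15ra, which presents IL-15 to neighbouring cells, was called lower with both probes, at -0.83 (SD 0.30) and -0.77 (SD 0.03). The probes of Il15 disagreed, with -0.85 (SD 0.05) and a call for one and 0.16 (SD 0.22) for the other. Il7 stood at -0.73 (SD 0.20) and was not called. Il2rg, the shared gamma chain itself, was at -0.51 (SD 0.38), and Il4ra, the brightest of the family and a receptor chain for IL-4 and IL-13, at 0.30 (SD 0.00). Neither was called.

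The IL-10 family was measured almost entirely through receptors. No ligand was measured at MXD 2W, Il10 being above background only in VC and Il24 only in MXD. Of the 8 measured receptor probes 5 were called lower, where 8.90% of all probes were called lower. Il20ra, a chain of the receptor for IL-19, IL-20 and IL-24, read 839 and 766 in MXD against 2447 and 1931 in VC, a log2 fold of -1.44 (SD 0.15). Its partner chain Il20rb, the brightest of the family, gave -0.95 (SD 0.21) and -0.96 (SD 0.07) with 2 called probes. The values of both genes hardly changed after normexp, at -1.35 and at -0.95 for each probe. Il22ra2, a secreted protein that binds IL-22, was at -1.48 (SD 0.30) with MXD signals of 63 and 56, or -0.55 after normexp. Il10ra was called lower at -0.78 (SD 0.16).

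In the IL-17 family the values lay on both sides of VC, with a median log2 fold of -0.16. Of 11 measured IL-17 family probes at MXD 2W, 0 were called lower and 1 higher, against 8.90% and 6.09% of all probes. The probe was A_52_P12243 of Il17rd, a receptor-like protein also known as an inhibitor of fibroblast growth factor signalling, which read 4072 and 2720 in MXD against 1535 and 1364 in VC. Its log2 fold was 1.20 (SD 0.29), or 1.07 after normexp. The other measured probes of Il17rd gave -0.16 (SD 0.22) and -0.25 (SD 0.90), so the rise is that of 1 measured probe of 3. Il17ra, the common receptor chain of the family, was at 0.43 (SD 0.38) and 0.22 (SD 0.07), and Il17rc at -0.48 (SD 0.17) with its brighter probe, all uncalled.

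None of the 8 measured IL-6 family probes was called at MXD 2W, 4 being higher and 4 lower than VC. In that comparison 8.90% of all probes were called lower and 6.09% higher. The 6 receptor probes had a median log2 fold of -0.63. Il31ra, a receptor chain for IL-31, had the lowest value of the family, its arrays giving -0.50 and -1.51, and is named after its values were seen. Il6st, the shared signalling chain gp130, was at -0.58 (SD 0.27), and Il6ra at -0.73 (SD 0.31) and -0.68 (SD 0.05). Il11ra1, the IL-11 receptor and the brightest member of all, read 53799 and 52251 in MXD against 42563 and 35576 in VC, a log2 fold of 0.45 (SD 0.15). It was higher than VC on both arrays in all 3 weeks of MXD, with means of 0.38, 0.45 and 0.22, none past 1.5-fold. With N-CE the same probe stood at -0.23, 0.20 and 0.29 at 1W, 2W and 3W.

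Among receptors of IL-3, IL-5 and IL-13, Il13ra1 was called lower with 1 of 2 probes, at -0.84 (SD 0.13), the other being at -0.89 (SD 0.60). Il13ra2, a decoy receptor for IL-13, was at -0.83 (SD 0.08), or -0.22 after normexp, with MXD signals of 62 and 50. Il3ra, the brightest of this group, was at -0.24 (SD 0.18). In the IL-12 and IL-23 family only receptors were measured at MXD 2W, and Il12rb1 was at -0.63 (SD 0.18) without a call. Outside these families, Il34, a ligand of the Csf1 receptor that sustains Langerhans cells, read 2196 and 1843 against 4753 and 3972, a log2 fold of -1.11 (SD 0.00). Il16, a chemoattractant of CD4 cells, was called lower at -0.83 (SD 0.08), and its fainter second probe gave -1.32 (SD 1.02).

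Genes that pass on or process interleukin signals were also mostly below VC at MXD 2W. Of 42 measured genes of a list of 47 that are no members, 3 were higher than VC, 7 were called lower and 0 called higher, with a median log2 fold of -0.42, where 8.90% of all probes were called lower. They were the transcription factors Stat4 (-0.66), Stat5a (-0.82) and Stat5b (-0.87), the protease Casp4 (-1.26), the receptor Lifr (-1.23) and the cytokines Cntf (-0.84) and Tslp (-1.01). In the other 5 comparisons 0 of the 41 to 43 measured genes of the list were called, where 0.103% to 1.01% of all probes were called higher and 0.0774% to 2.15% lower.

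Markers of several cell types were lower in the same comparison. The median log2 fold at MXD 2W was -0.67 over 4 keratinocyte markers, -0.84 over 4 fibroblast markers, -1.41 over 4 skeletal muscle markers, -0.79 over 3 adipocyte markers, -0.46 over 3 endothelial markers, -0.74 over 5 macrophage markers and -0.80 over 3 Langerhans and dendritic cell markers. Called lower among them were 2 of 4, 2 of 4, 4 of 4, 2 of 3, 1 of 3, 3 of 5 and 2 of 3. For all probes the share called lower was 8.90%. T cell markers were mixed, with Cd3g at -1.37 and Cd3d at -1.19 called lower and Cd4 at 1.06 called higher, and so were mast cell markers, with Cpa3 at -0.84 and Cma1 at -0.91 called lower and Kit at 1.18 called higher. Of 8 neutrophil markers 3 were measured, with a median log2 fold of -0.08, 1 being called higher at 0.96 and 0 lower. The part of each cell type in the values of the members was not tested. Of 4 keratinocyte markers 3 or 4 were measured in each comparison, and so were all 4 fibroblast and all 4 muscle markers, so the pools held the layers of whole back skin, muscle included.

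With N-CE a single member was called over the 3 weeks. At 1W, 63 of 83 measured members were higher than VC, 75.9% against 55.1% of all probes, with a median log2 fold of 0.23 against 0.03. Only Il18 was called, with signals of 4183 and 4219 in N-CE against 2713 and 2728 in VC and a log2 fold of 0.63 (SD 0.00). Both N-CE readings were above both VC readings, again from 1 pool per group. After normexp the median of members was 0.09, and the log2 fold of Il18 was 0.57, just short of 1.5-fold. The members of the IL-1 family had the same lean, 23 of 27 being higher with a median of 0.33, and among the 4 lower probes Il1b was lowest, at -0.58 (SD 0.11). Il1b thus lay on opposite sides of the shared VC pool at 1W, at 0.52 with MXD and -0.58 with N-CE, without a call in either. S100a9 was called higher at N-CE 1W too, at 1.09 (SD 0.03), and S100a8 was at 0.28 (SD 0.11). On the list of 47 genes that are no members, 34 of 43 measured were higher at N-CE 1W, with a median log2 fold of 0.16. All measured T cell, B cell, macrophage, neutrophil, endothelial, adipocyte, and Langerhans and dendritic cell markers were higher. Higher too were 2 of 4 keratinocyte, 3 of 4 fibroblast and 4 of 5 mast cell markers, but 0 of 4 muscle markers and 0 of 1 eosinophil marker. The part of each cell type in this lean was not tested.

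At N-CE 2W the 2 arrays gave opposite signs for 45 of 75 members (60.0%, against 60.1% of all probes), and the median of members was -0.05, against 0.00 for all probes. At N-CE 3W 45 of 66 members were below VC and 31.8% above it, against 51.4% of all probes above. The median was -0.12, against 0.01 for all probes. At MXD 3W 41 of 67 were below VC and 38.8% above it, against 51.2% of all probes above. The median was -0.04, against 0.00 for all probes. Il33, Il18, Il1f8 and Il1f9, all lower by more than 1 on the log2 scale at MXD 2W, stood at -0.22, -0.10, -0.15 and -0.11 at MXD 3W.

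With weeks standing in for replicates, limma was run over the 3 weekly log2 folds, p-values being adjusted by Benjamini-Hochberg over all probes, and no member passed. The counts were 0 of 73 members for MXD, 0 of 75 for N-CE and 0 of 70 for MXD minus N-CE, with lowest adjusted p of 0.464, 1 and 0.675. Over all probes the same fits called 0 of 26109, 0 of 26085 and 0 of 25441, so these zeros are not particular to the members. At an unadjusted p under 0.05 there were 5, 0 and 7 members, or 6.85%, 0% and 10% of members against 10.3%, 1.92% and 7.18% of all probes. Over MXD these were both probes of Il11ra1, at mean log2 folds of 0.35 (SE 0.11) and 0.30 (SE 0.11), and Il7 at -0.54 (SE 0.18), Il20rb at -0.48 (SE 0.18) and the faint probe of Il16 at -0.94 (SE 0.16). Each had 1 direction in all 3 weeks, the last of them being above background in neither group at 3W. Without week 3, the difference MXD minus N-CE had 2 of 70 members with a lowest adjusted p of 0.0478 by the same limma test, which called 874 of 25441 probes there.

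Across the 9 pools, on a scale with the same upper quartile in each channel, MXD 2W was the lowest pool for 37 of the 65 members measured throughout (56.9%), and for 23.3% of the 23540 probes of all genes measured throughout. N-CE 1W was the highest pool for 34 members (52.3%) and for 26.6% of all probes. Levels of Il33 were 8.97 (SD 0.08) in the MXD 2W pool, next 10.02 (SD 0.02) at MXD 3W, and 10.95 (SD 0.05) at N-CE 1W, on the log2 scale. The VC pools lay at 10.51 (SD 0.13), 10.45 (SD 0.07) and 10.28 (SD 0.09) for 1W, 2W and 3W, the 1W and 2W levels differing by less than their spread over 4 readings. The A_52_P12243 probe of Il17rd had its highest level, 11.26 (SD 0.22), at MXD 2W and its lowest, 8.54 (SD 0.21), at N-CE 1W. Each week had a slide of its own, so levels of different weeks cannot be told apart from differences between slides.

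**Figure D5:**
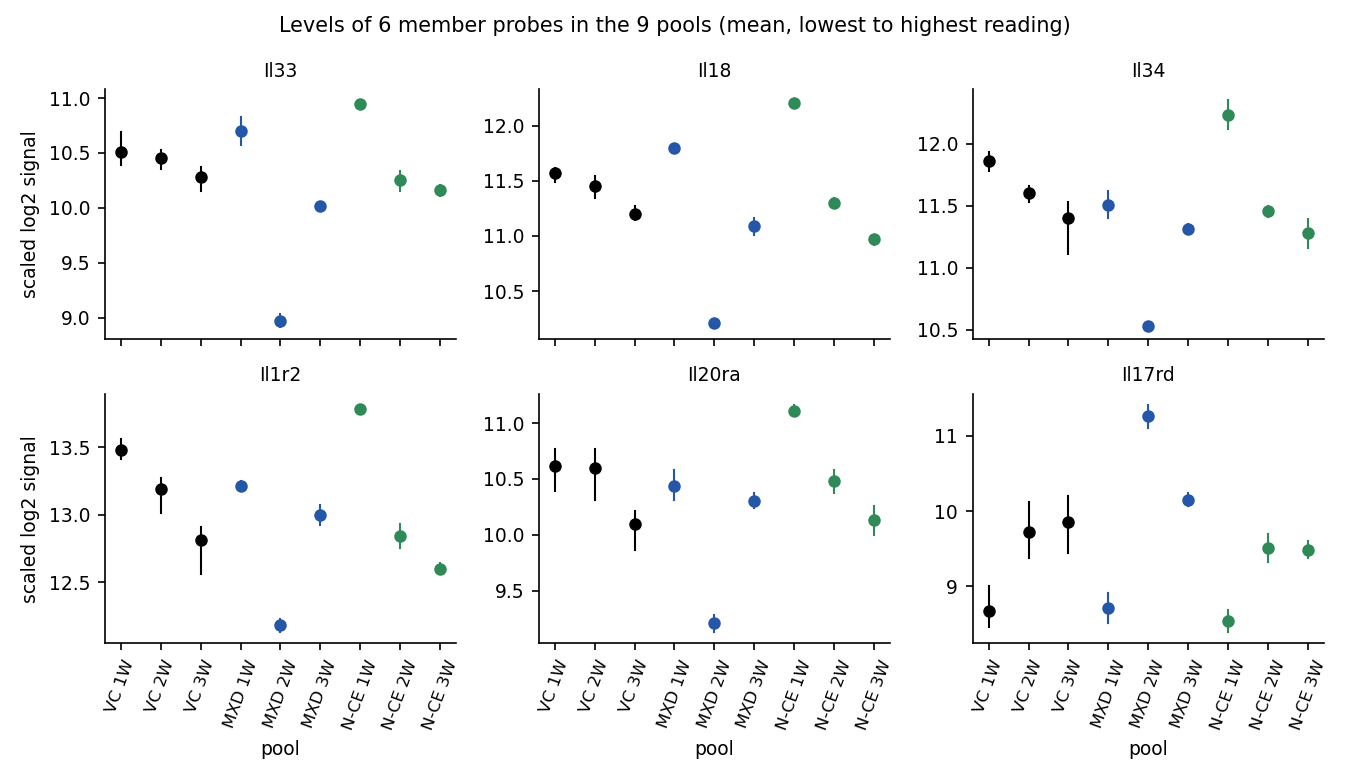
Log2 level (vertical axis, processed signal scaled to the same 75th percentile per channel) of 6 member probes in the 9 pools (horizontal axis), as the mean of 4 readings for VC and 2 for treated pools, with bars from the lowest to the highest reading. MXD 2W is the lowest pool for Il33, Il18, Il34, Il1r2 and Il20ra and the highest for Il17rd.

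Several members had nearly the same series of 6 log2 folds. The probe closest to Il33 was Il1f9, with a mean absolute difference of 0.12 over the 6 comparisons, followed by Il18 (0.12) and Il1f8 (0.13). The closest probe to Il20rb was Il34 (0.07), and to Il18r1 it was Il20ra (0.12). For some genes the probes of one gene were among the closest pairs, with 0.04 for both probes of Il15ra, 0.04 for Il11ra1 and 0.07 for Il1r2. The probes of Il15 and of Il13ra1, in contrast, each lay closest to a probe of another gene. The nearest neighbour lay farther off for Il1b (0.27), Il1f6 (0.20), Il7 (0.19), the called probe of Il1a (0.16) and Il17rd (Il21r at 0.16). Comparisons of a week share their VC pool, so these values are not independent.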

How the data were processed

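The DNA microarray series measured RNA of whole back skin under MXD, N-CE or vehicle, as 9 pools of 6 mice on 12 two-colour 4x44K arrays. The authors deposited the Feature Extraction output of each array (version 12.0.3.1 in the file headers, 11.0.1.1 in the submitters' processing notes). The deposited log10 ratio is Cy5 over Cy3 after background subtraction and dye normalization, the deposited p-value of a spot comes from the software's error model, and the deposited signal intensities are given per channel raw and processed. The matrix deposited for the series holds the log10 ratio of the processed signals, within 1e-05 at each of 43379 spots. The deposited log10 ratio of the software was within 1e-05 of the matrix at only 32702 to 37513 spots per array. It was exactly 0 at 13.5% to 24.6% of spots.

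Calculations used Python 3.11.15, numpy 2.4.6, pandas 2.3.3, R 4.3.3 and limma 3.58.1. Control and outlier spots were left out, ratios were turned to treated over VC, spots of a probe were averaged, and a fold is the geometric mean over the dye swap. Of 124 probes, 104 had an accession in the RefSeq table. Lower bounds used channels after normexp, loess and Aquantile. Limma tested the 3 weekly log2 folds. Named are all called members, the brightest probe of each family and a list of well-known interleukins. Members, families and gene lists were chosen with earlier results of these data known. The scripts were tested on simulated data. Alternatives covered the P limit, folds, filters, normexp, single arrays, brightest probes, outlier spots, the matrix and weeks left out. The number of arrays limits the precision.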

Additional observations from a re-analysis of the deposited data

Results flagged for a closer look

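The following values concern members that were called in 1 comparison and lay on the other side of VC, on both arrays, in a comparison that differed in week or treatment. There were 18 such cases, for 15 probes, and the differences themselves were not tested, since each pool exists once. The share of all probes that met the same rule was not computed, so the count of cases has nothing to be set beside. Only Il1f6 was called on both sides.

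Between MXD 1W and MXD 2W the log2 fold was higher at 1W by 2.06 for Il1f6, 1.87 for Il1f8, 1.75 for Il1f9 (A_51_P408116), 1.70 for Il33, 1.45 for Il18, 1.38 for Il18r1, 1.23 for Il7r, 1.00 for Il10ra and 0.97 for Il1rl1 (A_52_P484194). Il1f6 was also higher at MXD 1W than at MXD 3W, by 1.12. Between MXD 2W and MXD 3W the difference in log2 fold was -1.68 for Il22ra2, -1.55 for Il20ra, and -1.20 and -1.24 for the probes of Il1r2.

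Between treatments of a week, with a shared VC pool, MXD minus N-CE was -1.20 for Il7 at 1W and -1.20 for Il13ra2 at 2W. Il18 was higher at N-CE 1W than at N-CE 2W by 0.78 and than at N-CE 3W by 0.87.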

How the results depend on the processing

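No called member changed direction under normexp or the series matrix. Either array alone could not reverse a call, since a call required the same direction on both arrays. With normexp and loess, the median of members was -0.27 at MXD 2W and 0.09 at N-CE 1W, and without a filter on dim probes -0.32 and 0.11. The counts of members called did not move by more than 1.5 times with symmetric folds, the arithmetic mean, outlier spots kept, the matrix or other filters. For these alternatives and those that follow, limma apart, the share of all probes that passed was not computed. The counts below can therefore not be set beside the array as a whole. Without the P criterion, 6 members were past the lower fold at MXD 1W, 41 at MXD 2W, 1 at MXD 3W, 1 at N-CE 1W, 1 at N-CE 2W and 5 at N-CE 3W, and 2 past the upper fold at MXD 2W and 2 at N-CE 1W. With P under 0.01 on at least 1 array, lower counts were 3, 39, 1, 1, 1 and 2 in this order, and higher counts 2 at MXD 2W and 2 at N-CE 1W. On the array with the treated pool in Cy5 alone, 2 members were lower at MXD 1W, 4 higher at MXD 2W, 2 higher at N-CE 1W and 5 lower at N-CE 2W. On the array with it in Cy3 alone, 2 were lower at MXD 1W, 1 at MXD 3W, 1 at N-CE 1W and 2 at N-CE 3W, and 5 were higher at N-CE 1W and 1 at N-CE 2W. By the brightest probe of each gene, 1 was higher at MXD 1W and 0 at MXD 2W. By fold alone, normexp gave at MXD 1W 1 higher (3 as deposited) and 1 lower (6), at MXD 2W 1 higher (2), at N-CE 1W 0 higher (2) and 0 lower (1), and 0 lower at MXD 3W, N-CE 2W and N-CE 3W (1, 1 and 5). With the VC mean of both comparisons, added after seeing the data, 5 were past the upper fold at MXD 1W, 4 at MXD 2W, 1 at N-CE 1W and 1 at N-CE 2W, and 4 past the lower fold at MXD 3W. With limma, leaving out each week in turn gave 0 members for MXD and for N-CE, and 0 to 2 for MXD minus N-CE, the 2 without week 3. The slide as a random block, with a correlation of 0.178, gave 0 in each fit. Over all probes these limma fits also called 0, apart from 874 for MXD minus N-CE without week 3. VC against VC over members was 0.09, 0.37 and -0.04 for weeks 1, 2 and 3, and -0.03, 0.08 and 0.11 after normexp, loess and quantile normalization. Every sample carries replicate number 1, so replicate numbers pair no pools. Pools were paired by week instead, in MXD minus N-CE within weeks and with the slide as a block. Faint members, such as the Il1rl1 variant 2 probe in VC, were limited by their signal over background.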
